A study of Mus musculus with 2 samples.

Results

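The 9 mouse genes of the SoxC, SoxD and SoxE groups of transcription factors were followed in the midbrain of embryos at embryonic day 10.5. They were taken by name from the gene tables, 9 of 43346 genes: Sox4, Sox11 and Sox12 (SoxC), Sox5, Sox6 and Sox13 (SoxD), and Sox8, Sox9 and Sox10 (SoxE). Total RNA was sequenced in 2 libraries of B6NCrl embryos, each made from a pool that mixed male and female midbrains, with 69 embryos in the pool of replicate 1 and 51 embryos in that of replicate 2. No mutant, treated or older group stands beside them, so each comparison is between genes within a library or between the 2 libraries. Library totals were 45531621 expected counts over genes in replicate 1 and 50477634 in replicate 2.

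All Sox proteins bind the minor groove of DNA through an HMG box, and the groups are set apart by that box and by what surrounds it. SoxC proteins carry a strong activation domain at their C-terminal end and are best known in newborn neurons. SoxD proteins have no activation domain, pair through a coiled coil and work with other factors, most famously with Sox9 in cartilage. SoxE proteins act in neural stem cells, glia and the neural crest.

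The opening of the HMG box shows how the genes fall into 3 groups and how closely the members of a group resemble each other, which bears on reads that could be shared between them. Below are 60 coding bases from the start of the conserved core of the box, in the transcript that gave most of each gene's counts, from the GENCODE M21 transcripts (GRCm38), with capitals where a base differs from Sox11.
Sox4: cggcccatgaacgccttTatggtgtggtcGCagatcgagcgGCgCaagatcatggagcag
Sox11: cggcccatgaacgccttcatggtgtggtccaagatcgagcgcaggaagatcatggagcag
Sox12: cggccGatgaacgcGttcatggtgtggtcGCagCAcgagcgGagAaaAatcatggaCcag
Sox5: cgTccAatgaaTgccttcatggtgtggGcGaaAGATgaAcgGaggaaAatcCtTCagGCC
Sox6: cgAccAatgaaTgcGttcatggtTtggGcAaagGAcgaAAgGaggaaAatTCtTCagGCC
Sox13: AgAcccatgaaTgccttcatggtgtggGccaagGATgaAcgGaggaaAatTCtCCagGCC
Sox8: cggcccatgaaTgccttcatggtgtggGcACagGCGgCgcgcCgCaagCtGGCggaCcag
Sox9: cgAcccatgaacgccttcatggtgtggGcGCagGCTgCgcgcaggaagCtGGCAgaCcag
Sox10: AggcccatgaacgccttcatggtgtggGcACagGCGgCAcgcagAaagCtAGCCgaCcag
Sox4 differed from Sox11 at 6 of these bases and Sox12 at 10. The SoxD genes differed from Sox11 at 17 to 20 bases, and all 3 SoxD genes end the stretch in the same capitals. The SoxE genes differed at 14 to 16 bases.

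Over 210 bases of the box, identity was 81.9% to 91.0% within groups (9 pairs, median 84.8%) and 52.9% to 75.2% between groups (27 pairs, median 63.3%). The ranges did not overlap, but the groups are set apart in part by this box, so that is a description only. Sox4 and Sox11 were the closest pair at 91.0%. SoxC and SoxE boxes shared 67.1% to 75.2% of bases, more than either shared with SoxD boxes (57.1% to 65.2% for SoxC and 52.9% to 62.4% for SoxE). The longest run of bases shared exactly by a pair of transcripts was 48, between Sox4 and Sox11, followed by 44 between Sox9 and Sox10 and 33 between Sox4 and Sox12. Expected counts, which share out reads that fit several genes, were whole numbers (within 0.01) for 7 of the 9 genes. They were not whole for Sox4 or Sox5 in at least 1 library. Those of Sox11, which shares the longest run with Sox4, were whole in both. Gm26735, a gene that overlaps Sox4, had 2006.88 counts in replicate 1 and 1725.65 in replicate 2. Sox5os1, which overlaps Sox5, had 3.77 in replicate 1 and 0 in replicate 2. Which genes the shared reads fit was not tested.

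**Figure D1:**
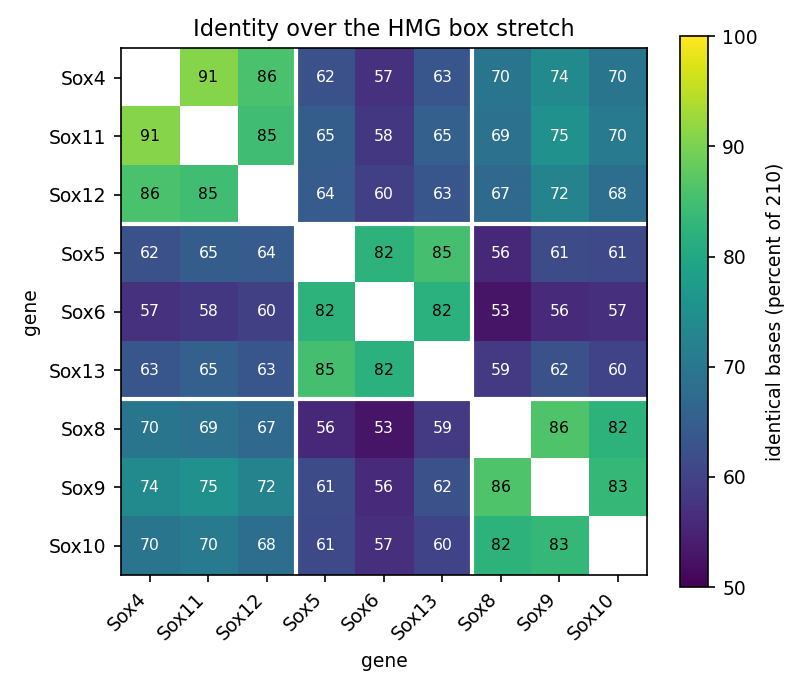
Percent of identical bases over 210 bases of the HMG box, for each pair of the 9 genes (rows and columns; colour scale and printed values in percent; white lines part SoxC, SoxD and SoxE). The 3 blocks on the diagonal, within groups, hold 81.9% to 91.0%, and the cells outside them 52.9% to 75.2%.

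Of 8 genes in the midbrain list, 7 reached 1 TPM in both libraries, against 58.1% of 21474 protein-coding genes. TPM is the share of a library's transcripts, corrected for length. The exception was En2, with 0.92 TPM in replicate 1 and 0.71 TPM in replicate 2. Pax7 (1.47 and 1.12 TPM), Lmx1b (2.30 and 2.63 TPM) and En1 (4.74 and 4.46 TPM) were also low in replicates 1 and 2. Otx2, required for the forebrain and midbrain, had 138 TPM in replicate 1 and 123 TPM in replicate 2. None of 39 Hox genes, which mark the hindbrain and spinal cord, reached 1 TPM in both libraries, and 28 of them were at 0 in replicate 1 and 23 in replicate 2. The highest, Hoxa2, had 0.24 TPM in replicate 1 and 1.67 TPM in replicate 2. In bulk RNA, fewer cells of a type and less RNA per cell cannot be told apart.

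Of the 9 genes, 8 reached 1 TPM in both libraries, Sox10 being the exception, against 58.1% of 21474 protein-coding genes. Together they gave 87.4% of the TPM of all 20 Sox genes in replicate 1 and 85.1% in replicate 2. SoxC genes alone gave 62.7% in replicate 1 and 61.6% in replicate 2, SoxE genes 14.8% and 12.5%, and SoxD genes 9.85% and 11.0%. Summed levels were 340 ± 80.7 TPM for SoxC, 75.7 ± 25.7 TPM for SoxE and 56.6 ± 8.20 TPM for SoxD (SD, n = 2 for each).

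**Figure D2:**
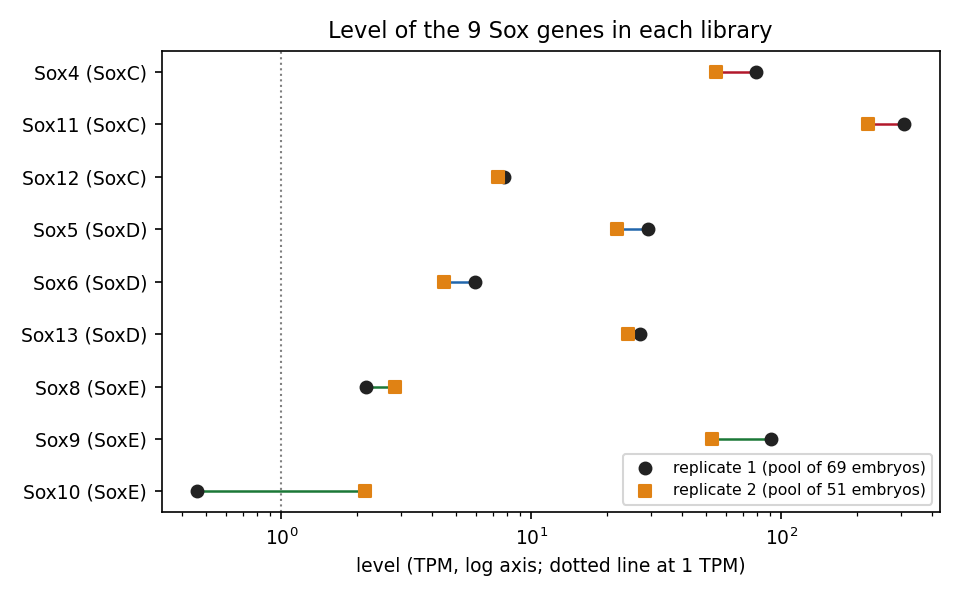
Level of each of the 9 genes in TPM (horizontal, log axis), with a circle for replicate 1, a square for replicate 2 and a line between them coloured by group; the dotted line is at 1 TPM. Sox11 lies highest, at 310 TPM in replicate 1 and 221 TPM in replicate 2, and Sox10 lies lowest, with replicate 1 below the dotted line.

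SoxC was the most abundant group in both libraries. Its summed TPM was 6.37 times that of SoxD in replicate 1 and 5.58 times in replicate 2, a log2 ratio of 2.58 ± 0.14 (SD, n = 2). The same ratio was 3.54 when only transcripts that hold the HMG box were summed, a setting added after the data were seen, because much of the Sox5 TPM came from short transcripts without the box. Over SoxE, summed SoxC TPM was 4.24 times as high in replicate 1 and 4.92 times in replicate 2, a log2 ratio of 2.19 ± 0.15 (SD, n = 2). These ratios rest on 2 libraries and are given as values, with no test.

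Sox11, an activator of neuronal genes, is a single-exon gene on the minus strand of chromosome 12 (mm10 chr12:27334264-27342574). It had 310 TPM in replicate 1 and 221 TPM in replicate 2, from 74797 and 60982 expected counts. These levels stood at the 97.9th percentile of protein-coding genes in replicate 1 and the 96.6th in replicate 2. Sox11 gave 78.1% of SoxC TPM in both libraries.

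Sox4, its closest relative, which acts with it in newborn neurons, is also a single-exon gene (chr13:28948919-28953713, minus strand). It reached 79.3 TPM in replicate 1 and 54.8 TPM in replicate 2, at the 89.7th and 85.5th percentiles of protein-coding genes. Sox11 stood 3.91 times above Sox4 in replicate 1 and 4.03 times in replicate 2, so both genes differed between the libraries by nearly the same factor. A long intergenic RNA gene on the opposite strand, Gm26735 (chr13:28943048-28951671), overlaps Sox4 and had 26.8 TPM in replicate 1 and 20.2 TPM in replicate 2. Whether the libraries kept strand is not given in the sources used here, so reads in that overlap cannot be assigned to Sox4 with certainty.

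Sox12, a weaker activator than the other SoxC proteins, had 7.76 TPM in replicate 1 and 7.32 TPM in replicate 2 (chr2:152393611-152398063, minus strand). It was the steadiest of the 9 genes between the libraries. Sox4 stood 10.2 times above it in replicate 1 and 7.49 times in replicate 2, and Sox12 gave 1.95% of SoxC TPM in replicate 1 and 2.58% in replicate 2. The SoxC order was the same in both libraries, Sox11 above Sox4 above Sox12.

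In the SoxD group, by TPM over all transcripts of a gene, Sox5 and Sox13 lay at the same mean level and Sox6 well below them. Sox5, which in the mouse cortex times the making of deep-layer neurons, had 29.3 TPM in replicate 1 and 22.1 TPM in replicate 2 (chr6:143828425-144781977, minus strand). Sox13, first described as an autoantigen of islet cells, had 27.1 TPM in replicate 1 and 24.2 TPM in replicate 2 (chr1:133382303-133424377, minus strand). On that scale Sox5 was 1.08 times Sox13 in replicate 1 and 0.910 times in replicate 2. The order of the pair thus changed with the library, and the genes did not differ beyond their spread. Over transcripts with the HMG box Sox5 lay lower, at 4.02 TPM in replicate 1 and 3.88 TPM in replicate 2. Sox13 then had 21.1 TPM and 18.5 TPM.

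Sox6, the close partner of Sox5 in cartilage, had 5.94 TPM in replicate 1 and 4.47 TPM in replicate 2 (chr7:115470872-116038796, minus strand). Sox5 stood 4.93 times above Sox6 in replicate 1 and 4.94 times in replicate 2. Of SoxD TPM, Sox6 gave 9.52% in replicate 1 and 8.80% in replicate 2. The antisense genes measured within Sox5 and Sox6 were low, at most 0.51 TPM for those in Sox5 and 1.27 TPM for Sox6os.

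SoxE was close to a single-gene group. Sox9, a factor of neural stem cells and the start of glial development as well as of cartilage, had 91.2 TPM in replicate 1 and 52.5 TPM in replicate 2 (chr11:112782224-112787760, plus strand). It gave 97.2% of SoxE TPM in replicate 1 and 91.3% in replicate 2. Sox9 was 1.15 times Sox4 in replicate 1 and 0.958 times in replicate 2, so these genes too changed places between the libraries.

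Sox8, which overlaps with Sox9 and Sox10 in glia and crest, had 2.17 TPM in replicate 1 and 2.85 TPM in replicate 2 (chr17:25565892-25570686, minus strand). The deposited bounds of its level were 1.88 to 2.93 TPM in replicate 1 and 2.46 to 3.80 TPM in replicate 2, which overlap. An antisense gene at its 5′ end, 2810468N07Rik, had 3.27 TPM in replicate 1 and 4.52 TPM in replicate 2, above Sox8 itself, and the same limit on strand applies.

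Sox10, the SoxE factor of migrating neural crest, Schwann cells and oligodendrocytes, had 0.46 TPM in replicate 1 and 2.15 TPM in replicate 2 (chr15:79154908-79165240, minus strand). Those levels rest on 35 expected counts in replicate 1 and 189 in replicate 2. Their deposited bounds, 0.313 to 0.612 TPM in replicate 1 and 1.84 to 2.44 TPM in replicate 2, did not overlap. Sox9 stood 198 times above Sox10 in replicate 1 and 24.4 times in replicate 2.

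Ordered by mean level, Sox11 came first, then Sox9 and Sox4, which did not differ beyond their spread. Sox5 and Sox13 followed, also within their spread of each other, then Sox12, Sox6, Sox8 and Sox10. The place of Sox5 holds only for TPM over all transcripts of a gene. Over transcripts with the HMG box, mean levels were 3.95 TPM for Sox5, 19.8 TPM for Sox13 and 7.54 TPM for Sox12. With counts over the effective length of the longest transcript they were 6.03, 19.8 and 7.38 TPM. Sox12 lay above Sox6 in both libraries. Sox8 at its lower value, 2.17 TPM in replicate 1, and Sox10 at its higher value, 2.15 TPM in replicate 2, nearly met.

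The 2 libraries were compared by the ratio of scaled counts, replicate 1 over replicate 2, over the 14768 genes that averaged 1 TPM or more, all 9 members among them. With 1 library on each side no spread between animals can be estimated, so the 95% intervals cover counting error only and compare these libraries. No member was past 2-fold higher in replicate 1, where 2.04% of tested genes were, and 1 member, Sox10, was past 2-fold higher in replicate 2, where 1.18% were. Intervals lay above 1 for 6 members (Sox4, Sox11, Sox5, Sox6, Sox13 and Sox9), against 28.0% of tested genes, and below 1 for 2 (Sox8 and Sox10), against 28.9%. Only the interval of Sox12 spanned 1. The median log2 ratio was 0.23 over the members and −0.01 over all tested genes. All 9 ratios kept their sign under the other scalings tried.

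Sox10 differed most. Replicate 2 held 4.93 times as much as replicate 1 (interval 3.47 to 7.38), a log2 ratio of −2.30 for replicate 1 over replicate 2. Only 0.223% of tested genes had a ratio as low. Sox10 was among the tested genes only through replicate 2, since it had 0.46 TPM in replicate 1. Its call and its place among the tested genes are thus a description only. Sox8 lay on the same side, with a ratio of 0.750 (0.612 to 0.917) for replicate 1 over replicate 2.

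Sox9 lay on the other side, with a ratio of 1.64 (1.59 to 1.69) and a log2 ratio of 0.71, at the 95.5th percentile of tested genes. The 3 SoxE genes thus did not differ between the libraries in the same direction. Sox4 and Sox11, with ratios of 1.37 (1.33 to 1.41) and 1.33 (1.31 to 1.34), stood at the 90.3rd and 88.8th percentiles. The SoxD ratios were smaller, 1.19 (1.10 to 1.28) for Sox5, 1.17 (1.07 to 1.29) for Sox6 and 1.08 (1.02 to 1.15) for Sox13. Sox12 had a ratio of 1.01 (0.929 to 1.11).

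**Figure D3:**
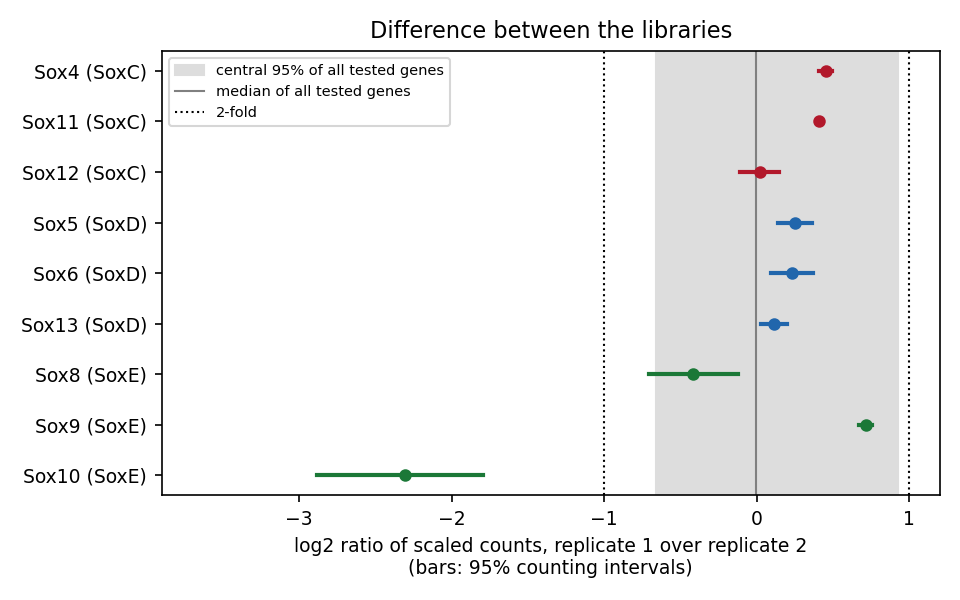
Log2 ratio of scaled counts, replicate 1 over replicate 2, for each gene (points, coloured by group), with 95% counting intervals (bars), the median of all tested genes (grey line), the central 95% of those genes (grey band, −0.66 to 0.93) and 2-fold (dotted). Sox10, at −2.30, lies outside the band, and the other 8 points lie inside it.

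Sequence upstream of the starts of Sox6 is shown because its 3 main transcripts begin at separate places in the gene. The 120 bases before each RefSeq start (GRCm38.p6, minus strand) are given, with capitals where the letters ACAAAG, a core recognised by HMG boxes, occur on either strand.
Sox6-203, chr7:115846141-115846260: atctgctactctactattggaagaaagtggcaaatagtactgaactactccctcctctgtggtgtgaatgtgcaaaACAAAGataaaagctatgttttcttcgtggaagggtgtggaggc
Sox6-202, chr7:116031048-116031167: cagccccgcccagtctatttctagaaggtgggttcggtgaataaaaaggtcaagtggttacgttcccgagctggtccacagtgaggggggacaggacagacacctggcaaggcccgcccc
Sox6-204, chr7:116038745-116038864: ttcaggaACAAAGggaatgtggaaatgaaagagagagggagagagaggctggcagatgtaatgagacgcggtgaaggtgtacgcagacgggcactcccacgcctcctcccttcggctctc
RefSeq gave 12 promoter windows of 300 bases for 7 of the members, 6 of them for Sox6. Counting both strands, ACAAAG occurred in 5 of the 12 windows (41.7%), all of them windows of Sox6, and in none of the 6 windows of the other members, against 18.7% of 32851 mouse windows. The related ACAATG occurred in 3 (25%), 2 of Sox6 and 1 of Sox5, against 12.6% of mouse windows. On a given strand the same bases never count for both, since the motifs differ in the fifth letter. The Sox6-202 window holds its match outside the bases shown. A match of letters is a description of the window only.

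Transcripts differed most within the SoxD group. Sox4, Sox11, Sox9 and Sox10 each have 1 transcript in the tables. The transcript with the highest share was the same in both libraries for all 9 genes. Sox6-203 (2825 nt) gave 50.3% of Sox6 TPM in replicate 1 and 43.4% in replicate 2. Sox6-202 (8193 nt) gave 25.9% and 38.5%, and Sox6-204 (8079 nt) gave 18.4% and 12.8%. By counts, which are not divided by length, Sox6-202 led with 39.9% in replicate 1 and 55.4% in replicate 2. All 5 Sox6 transcripts in the tables hold the HMG box.

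For Sox5 the share of TPM and the share of counts told different things. Of its 14 transcripts 6 hold the box, and these gave 13.7% of Sox5 TPM in replicate 1 and 17.6% in replicate 2, but 59.5% and 60.5% of its counts. By TPM the leading transcript was Sox5-208, a non-coding transcript of 351 nt without the box, at 33.0% in replicate 1 and 33.3% in replicate 2. It rested on 71.4 counts in replicate 1 and 62.2 in replicate 2, about 5.07% and 4.85% of the gene's counts.

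Other short Sox5 transcripts followed. Sox5-211 (669 nt, coding but without the box) gave 20.98% of Sox5 TPM in replicate 1 and 14.4% in replicate 2. Sox5-213 (633 nt, a retained intron) gave 16.9% and 17.9%. The full-length coding transcript Sox5-201, of 7243 nt and 15 exons, gave 10.6% and 11.3% of TPM but 46.3% and 46.5% of counts. Summed over transcripts with the box, Sox5 had 4.02 TPM in replicate 1 and 3.88 TPM in replicate 2, below Sox6 at 5.94 TPM in replicate 1 and 4.47 TPM in replicate 2, so the order of the pair turned round on that scale. With counts divided by the effective length of the longest transcript it did not turn: Sox5 had 6.72 TPM in replicate 1 and 5.34 TPM in replicate 2, above Sox6 at 3.84 TPM in replicate 1 and 3.09 TPM in replicate 2.

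Sox13 was less affected. Its transcripts with the box gave 77.6% of TPM in replicate 1 and 76.3% in replicate 2, and 94.7% and 94.3% of counts. Sox13-205 (3693 nt) led with 49.8% of TPM in replicate 1 and 46.6% in replicate 2, followed by Sox13-203 (3179 nt) with 27.8% and 29.1%. The retained intron Sox13-204 (757 nt, no box) gave 22.4% and 23.7%. On the scale of transcripts with the box, Sox13 had 21.1 TPM in replicate 1 and 18.5 TPM in replicate 2, the highest of the SoxD genes.

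Sox12 and Sox8 had smaller splits. Sox12-202, unspliced, gave 77.6% of Sox12 TPM in replicate 1 and 59.2% in replicate 2, and the spliced Sox12-201 gave 22.4% and 40.8%. Both hold the box. Sox8-201 gave 86.5% of Sox8 TPM in replicate 1 and 82.8% in replicate 2, and Sox8-202, also with the box, 13.5% and 10.9%.

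**Figure D4:**
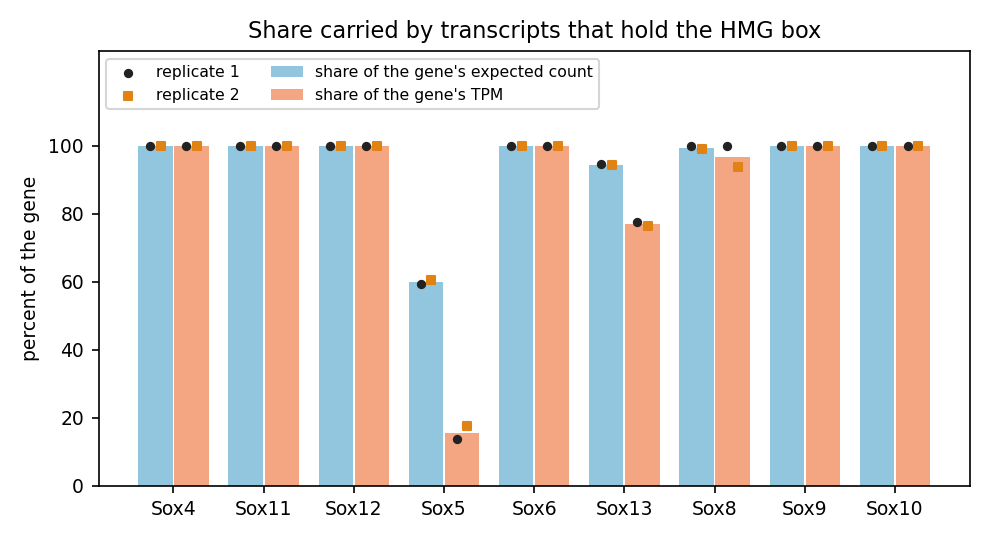
Share of each gene's expected count (blue bars) and of its TPM (orange bars) that came from transcripts with the HMG box, in percent; bars are means of the 2 libraries, circles replicate 1 and squares replicate 2. Sox5 stands out, with a mean of 59.97% of counts and 15.6% of TPM, and Sox13 follows with 94.5% and 77.0%.

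Genes linked to SoxC in newborn neurons were mostly higher in replicate 1, the library with more Sox4 and Sox11. Of 5 such genes 4 were higher in replicate 1, against 49.0% of all 14768 tested genes, and 1 was past 2-fold, against 2.04%. Their median log2 ratio was 0.55 against −0.01 over all tested genes. The same values over all tested genes stand beside each list that follows. Tubb3, a neuronal tubulin and reported target of Sox4 and Sox11, had 562 TPM in replicate 1 and 364 TPM in replicate 2. Dcx, a microtubule protein of migrating neurons, had 44.5 TPM in replicate 1 and 19.6 TPM in replicate 2, a ratio of 2.12. Tead2, a partner of Yap and a reported target of SoxC in mouse organs, had 309 TPM in replicate 1 and 314 TPM in replicate 2.

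All 10 neuronal markers were higher in replicate 1, with a median log2 ratio of 0.64 and summed levels of 1372 TPM in replicate 1 and 846 TPM in replicate 2. Past 2-fold were Dcx, given above, and Mapt, the tau gene, with 39.5 TPM in replicate 1 and 19.9 TPM in replicate 2. The lists are not separate: Tubb3, Dcx and Map2 stand among both the SoxC-linked genes and the neuronal markers. Neurod1 stands among both the SoxC-linked and the proneural genes. Of 7 proneural genes 5 were higher in replicate 1 (median log2 ratio 0.23). Atoh1, a factor of rhombic lip and other dorsal neurons, went the other way, with 0.75 TPM in replicate 1 and 4.07 TPM in replicate 2. Of 10 progenitor markers 8 were higher in replicate 1, none past 2-fold (median 0.17), led by Vim at 1047 TPM in replicate 1 and 958 TPM in replicate 2. Red cell genes were higher in replicate 2 for 7 of 7 (median −0.30). The part of these lists in the Sox4 and Sox11 ratios was not tested.

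For Sox9, 4 lists hold markers of cells known to use it besides neural progenitors. Of 10 gliogenic genes 6 were tested, 5 of them higher in replicate 1, with a median log2 ratio of 0.69. Nfia, a nuclear factor known to act with Sox9 at the start of gliogenesis in the spinal cord, had 11.1 TPM in replicate 1 and 4.96 TPM in replicate 2, a ratio of 2.40. Nfix, its relative, lay at a lower level, with 1.04 TPM in replicate 1 and 0.42 TPM in replicate 2. Fgfr3 was the highest of the list, with 59.8 TPM in replicate 1 and 57.2 TPM in replicate 2. Gfap and S100b, markers of mature astrocytes, had at most 0.07 TPM.

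Cartilage genes gave a mixed picture: 7 of 11 were tested, 4 higher in replicate 1 and 3 in replicate 2, with a median log2 ratio of 0.01. Col2a1, the Sox9 target of cartilage that embryonic neuroepithelium also makes, had 129 TPM in replicate 1 and 121 TPM in replicate 2. Acan, the cartilage proteoglycan and also a Sox9 target, was low, with 0.05 TPM in replicate 1 and 0.02 TPM in replicate 2. Col9a2 was past 2-fold, with 3.24 TPM in replicate 1 and 1.19 TPM in replicate 2. Head mesenchyme markers were all tested, 6 of 12 higher in each library (median 0.14), with sums of 870 TPM in replicate 1 and 622 TPM in replicate 2. Col3a1, the highest, had 416 TPM in replicate 1 and 317 TPM in replicate 2, and Dcn was past 2-fold with 11.7 TPM in replicate 1 and 5.16 TPM in replicate 2. Of the otic list only 2 of 6 genes were tested, both higher in replicate 1 (median log2 ratio 0.48). Pax8 had 6.06 TPM in replicate 1 and 5.73 TPM in replicate 2, and Dlx5 had 7.46 TPM and 3.78 TPM. The part of these lists in the Sox9 ratio was not tested.

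Crest and crest-glia markers stood beside Sox10 in part. Of 11 such genes 6 were tested, 3 higher in each library (median log2 ratio 0.07), with sums of 130 TPM in replicate 1 and 97.3 TPM in replicate 2, and none was at 0. Some of the low members lay on the side of Sox10. Foxd3, a factor of early crest, had 3 counts in replicate 1 and 15 in replicate 2. Erbb3, the neuregulin receptor of crest-derived glia, had 0.60 TPM in replicate 1 and 1.16 TPM in replicate 2. The highest member, Ednrb, which neural progenitors also make, lay on the other side with 60.1 TPM in replicate 1 and 36.3 TPM in replicate 2.

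Oligodendrocyte genes showed no common direction. Of 9 such genes 6 were tested, 4 higher in replicate 1 and 2 in replicate 2, none past 2-fold, with a median log2 ratio of 0.09. Cnp, the highest, had 19.1 TPM in replicate 1 and 15.1 TPM in replicate 2, and Mag, a myelin protein too low to be tested, had 13 counts in replicate 1 and 34 in replicate 2. Mog, of mature myelin, had 0.08 TPM in replicate 1 and 0.13 TPM in replicate 2. Cranial ganglion genes were higher in replicate 1 for 3 of 6 and in replicate 2 for 3 (median −0.02), and Pou4f1 had 21.01 TPM in replicate 1 and 20.8 TPM in replicate 2. Endothelial genes had a median log2 ratio of −0.04 (3 of 7 higher in replicate 1). Hox genes, marks of tissue behind the midbrain, summed to 0.81 TPM in replicate 1 and 2.64 TPM in replicate 2. The part of these genes and cell types in the Sox10 ratio was not tested.

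**Figure D5:**
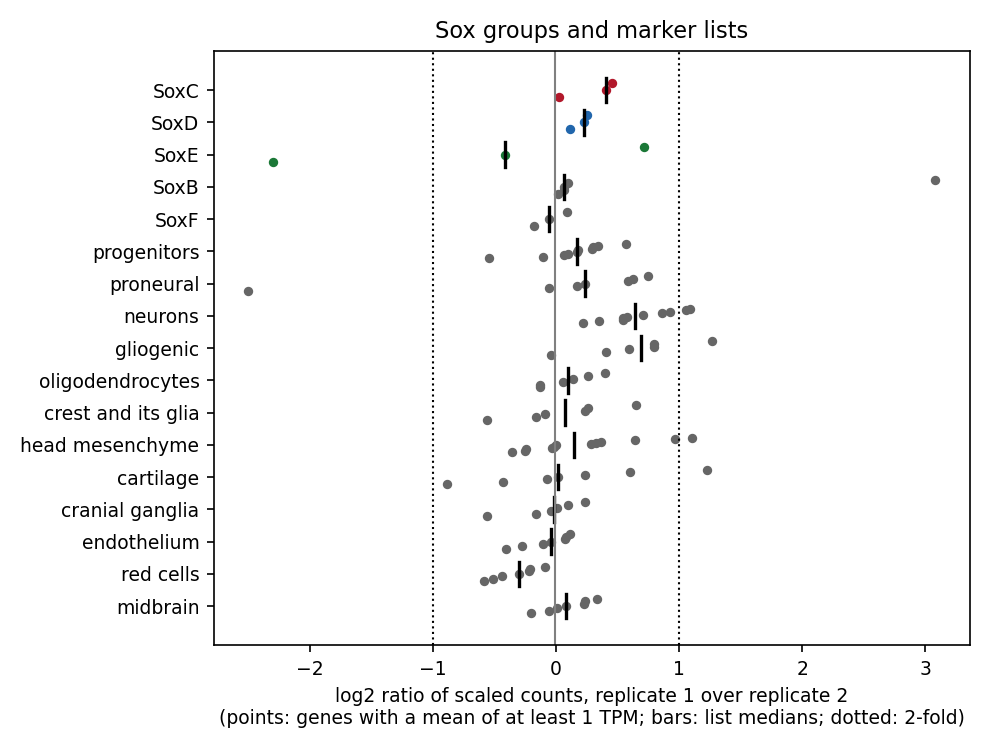
Log2 ratio of scaled counts, replicate 1 over replicate 2, for the members of each Sox group (coloured) and of each marker list (grey) that averaged 1 TPM or more; black bars are list medians, the grey line is the median of all tested genes and dotted lines mark 2-fold. The 10 neuronal markers all lie right of the grey line, and the 3 SoxE genes spread from −2.30 to 0.71.

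The other Sox genes served as a comparison. Sox2, the SoxB factor of neural stem cells, had 23.5 TPM in replicate 1 and 20.7 TPM in replicate 2, below the gene-level TPM of Sox5 and Sox13 in both libraries. Counted over transcripts with the box, Sox5 and Sox13 lay below this level of Sox2 in both libraries. Sox21 had 10.5 TPM in replicate 1 and 9.45 TPM in replicate 2, and Sox1 and Sox3 stayed under 5 TPM. The SoxF genes Sox7, Sox17 and Sox18, of blood vessels, lay between 6.72 and 16.0 TPM. Sox14 was the one tested Sox gene with a larger difference than Sox10, with 8.54 TPM in replicate 1 and 1.08 TPM in replicate 2. Sox15 and Sox30 had at most 0.13 TPM, and Sry was listed at 0 in both libraries.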

How the data were processed

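Gene and transcript tables were given for each of the 2 libraries, on mm10 with GENCODE M4 annotation, per the file headers and the notes deposited with them. Which aligner and quantifier made them is not given in the sources used here. Per the labels, the input was 10 ng of RNA above 200 nt with spike-ins, and the linked protocols include a kit that primes on poly(A) tails. The deposited expected counts are estimates per gene or transcript, with reads shared out. The deposited TPM values are those counts per effective length, brought to the same total in each library. The deposited FPKM values, scaled by length and library size, served as an alternative. The deposited percent of a transcript is its share of its gene's TPM. The deposited bounds of TPM, a signal on the TPM scale, come without a stated level. They need not hold the deposited TPM: Sox11 in replicate 1, at 310.29 TPM, lay above its bounds of 302.01 to 306.36 TPM. The TPM values of Sox8 and Sox10 lay within their bounds in both libraries.

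Names, positions and transcript sequences came from GENCODE M21 (GRCm38, the assembly of mm10), matched on identifiers without version (42462 of 43346 genes). For 5 of the members' transcripts, lengths differ between the releases. The 97 spike-in rows and 26248 tRNA rows, 3.39% of counts in replicate 1 and 3.28% in replicate 2, stayed out of library sizes. After rounding, counts were scaled with edgeR 4.0.16 (TMM factors), 1.01 and 0.988. Ratios had 0.5 added to each count and exact (Clopper-Pearson) 95% intervals, which cover counting error only and not spread between animals. PCR copies are not independent molecules, so the intervals may be too narrow even for counting error. Genes averaging 1 TPM or more were tested, and past 2-fold counted as called. The procedure was tested on counts simulated with counting error only, the error that the intervals assume. That test cannot show how the intervals hold with PCR copies or with spread between animals. The HMG box was found by translating the transcripts in each forward frame with Biopython 1.88 and searching for the residues RPMNAF. A transcript with them counted as holding the box. A whole box or a coding frame was not required, so Sox5-203, a processed transcript, and Sox13-202, a retained intron, counted too. Promoter windows came from RefSeq (GRCm38.p6), which gave none for Sox9 and Sox10.

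The members and lists were chosen with earlier results of these data known. Named were the 9 members, the other Sox genes, transcripts of at least 10% in either library, overlapping genes, and of each list up to 3 of the highest genes, the lowest, and any past 2-fold. Some of these are not reported here. Alternatives were DESeq2 1.42.0 size factors, total counts, unscaled TPM with 0.1 added, FPKM, posterior mean TPM, other minimums and folds, and leaving out a replicate. R 4.3.3, Python 3.11.15 with scipy 1.17.1, pandas 2.3.3 and numpy 2.4.6 were used.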

Additional observations from a re-analysis of the deposited data

How the results depend on the processing

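No paired analysis was possible because the 2 libraries form 1 group. No ratio changed sign under any scaling. The members past 2-fold, 1 at the settings used, were 0 with a minimum of 5 TPM, which leaves Sox10 out, and 2 at 1.5-fold, Sox9 and Sox10. Over all tested genes 476 were past 2-fold, with 5182 when no minimum was set, 113 at a minimum of 5 TPM and 1423 at 1.5-fold. The SoxC over SoxD log2 ratio of 2.58 was 3.54 with transcripts that hold the HMG box and 3.52 with counts over the longest transcript's effective length, both added after seeing the data. It ran from 2.48 to 2.67 with each library left out, and SoxC over SoxE from 2.08 to 2.30. Under unscaled TPM 5 of 9 log2 ratios moved beyond their counting intervals, and 1 under total counts. The members' median log2 ratio ran from 0.22 to 0.40 over the scalings, and that of all tested genes from −0.02 to 0.07. Members detected in both libraries were 6 to 8 over the settings, 8 at the one used. With replicate 1 left out, 9 were detected in replicate 2 alone. The leading transcript stayed the same in both libraries for 9 of 9 genes, by percent or by counts. Sox4, Sox11, Sox9 and Sox10 have 1 transcript each, so theirs could not differ. For Sox5 and Sox6 the leader by percent was not the leader by counts. Depth limits Sox10 and Sox8 most, and 2 pools allow no estimate of the spread between animals.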
